A study of Gallus gallus with 12 samples.

Results

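The 44 genes described here code for transcription factors of 7 DNA-binding families: 12 forkhead (FOX), 7 SOX, 7 T-box (TBX), 2 GATA, 12 Krüppel-like (KLF), 2 SNAI and 2 TWIST genes. They were taken from the 12297 rows of the expression table by gene symbol, a family name followed by its number. The pattern matched 48 rows, of which FOXD1, SOX18, TBX4 and TBX5 were left out by name. The FOX, SOX and TBX counts below therefore do not include these genes. Family membership was read from the symbol alone. Expression was measured by RNA sequencing of skin from untreated White Leghorn chicken embryos in 6 groups of 2 libraries each, 12 in all. The scale groups, from the tarsometatarsus of the lower leg, were taken at embryonic day 11 (scale E11, Hamburger-Hamilton stage 37) and day 9 (scale E9, stage 35). The feather groups were wing, thigh and dorsal skin at day 9 (wing E9, thigh E9 and dorsal E9, stage 35) and dorsal skin at day 7 (dorsal E7, stage 31). The tissue labels speak of skin and the titles of dermis. No label ties the 2 libraries of a group to separate embryos, and the p-values below then cover only the spread between those libraries, which may be technical. Scale formation and body site cannot be told apart in this design, since each scale library came from 1 site that no feather library shares.

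All 7 families act by binding DNA and setting the transcription of nearby genes. Forkhead factors bind through a winged-helix domain, SOX factors bend the minor groove with an HMG box, and T-box factors, which pattern limbs and body wall, use the T-box domain. GATA, KLF and SNAI factors bind through zinc fingers and TWIST factors through a basic helix-loop-helix domain. In developing skin such factors are known for the identity of dermal mesenchyme, neural crest derivatives, vessels and epidermis. SNAI and TWIST factors are known for keeping cells mesenchymal.

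Libraries held 13164611 to 20641981 reads on the table's rows, and 1 read was worth 0.0475 to 0.0736 CPM (read counts scaled by the effective library size). A gene with no read could still have had up to 3 reads, or 0.143 to 0.221 CPM. Thigh E9 replicate 2 stood apart, with 12.9% of its CPM on 12 mitochondrial rows, against 3.24% to 4.75% in the other 11 libraries. Its differences from thigh E9 replicate 1 passed 0.5 on the log2(CPM + 1) scale in 23 of 44 factors and 35.6% of all rows, whereas the other groups had 1 to 13 such factors and 3.42% to 13.6% of all rows. The dorsal E9 libraries nearly lacked the W chromosome genes HINTW and SPINW, whose summed level was 0.41 CPM in each, against 54.3 to 183.9 CPM in the other 10 libraries. In comparisons of dorsal E9 with another group, that difference cannot be told apart from age or region. Skin carried keratinocyte, vessel, glial and blood markers in every group, so that in bulk libraries fewer cells of a type and less RNA per cell cannot be told apart.

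None of the 44 factors was at 0 in any library. In all 12 libraries, 35 factors reached 1 CPM and 29 reached 5 CPM. KLF9 alone passed the filter on low values through 1 group, dorsal E9, at 1.28 and 1.03 CPM, where it had to be higher. The table lists no row whose 2nd highest value is under 0.97 CPM, so factors at lower levels were not analysed here. Values are CPM and not per length, so differences are described between groups, and a ranking of mean CPM within a family served only to choose genes to describe.

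Across the 6 groups, 32 of 44 factors differed in limma's moderated F test on log2(CPM + 1), at a Benjamini-Hochberg adjusted p under 0.05 over 12277 rows, against 44.6% of all rows tested. By family these were 7 of 12 FOX, 5 of 7 SOX, 6 of 7 TBX, 2 of 2 GATA, 9 of 12 KLF, 2 of 2 SNAI and 1 of 2 TWIST genes. The lowest adjusted p-values belonged to foxp2 at 1.31e-06, TBX15 at 2.57e-06 and KLF4 at 6.98e-06. By group mean, scale E11 held the highest level of 4 factors, scale E9 of 3, wing E9 of 6, thigh E9 of 12, dorsal E9 of 12 and dorsal E7 of 7. Over all 12297 rows, before the filter, those shares were 14.8%, 11.8%, 13.9%, 25.1%, 20.9% and 13.5% in the same order. The heat map of all members shows members of 1 family highest in different groups, such as TBX3 in wing E9, Tbx22 in thigh E9 and TBX15 in dorsal E7.

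**Figure D1:**
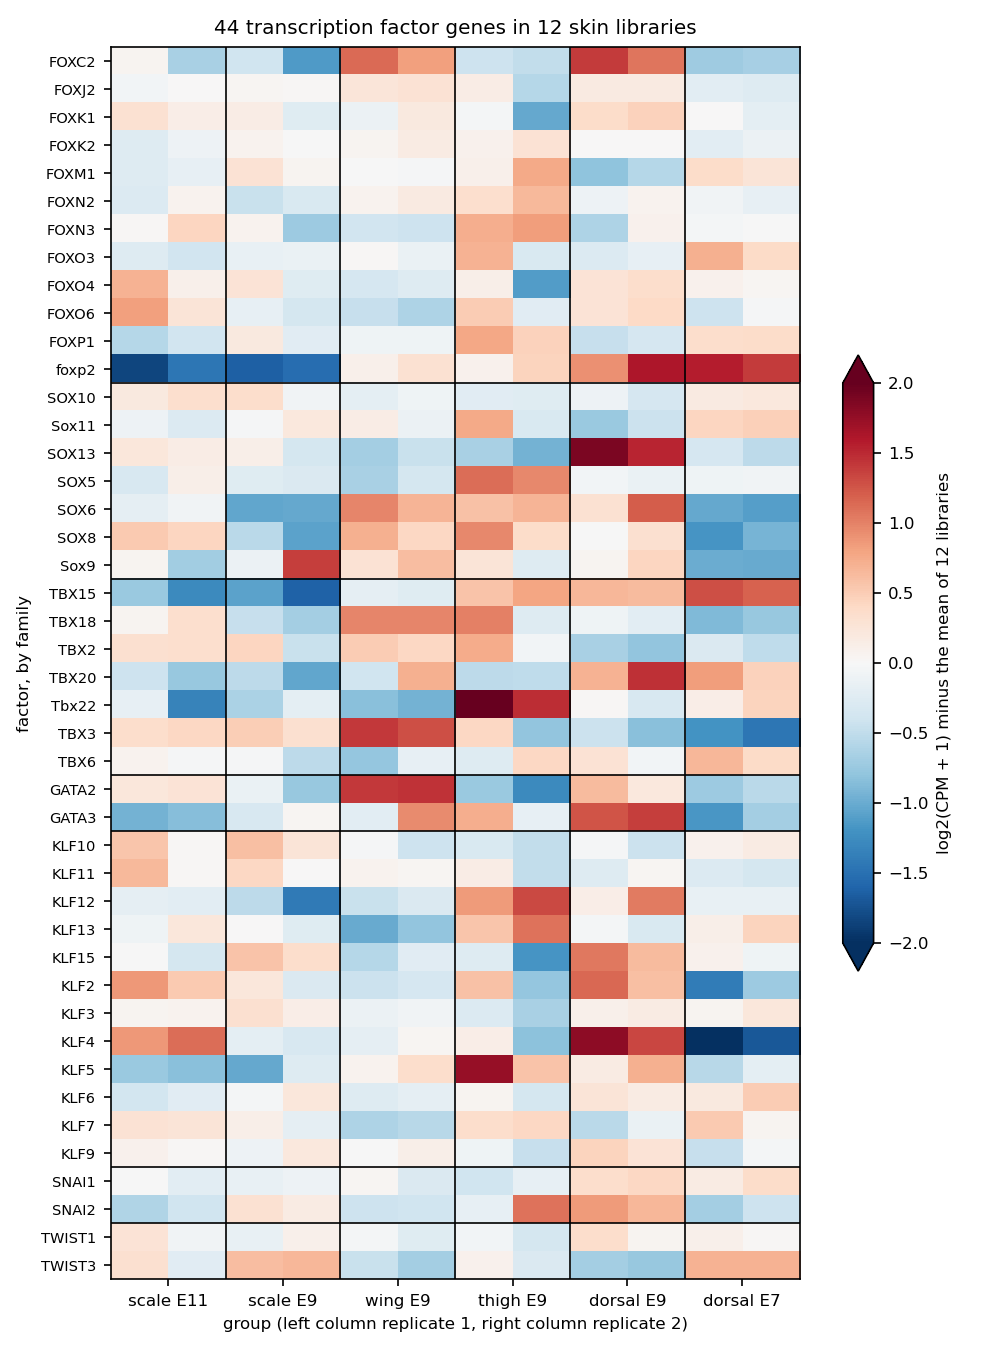
Heat map of the 44 factors (rows, by family) in the 12 libraries (columns, by group). Colour is log2(CPM + 1) minus the factor's own mean over the 12 libraries, so rows show differences between groups and not levels between genes, and the SOX13 and KLF4 rows are highest in both dorsal E9 libraries.

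To ask how scale-forming skin differs from feather-forming skin of the same age, scale E9 was compared with the average of wing, thigh and dorsal E9. In scale E9, 11 of 44 factors were lower and 2 were higher by limma, against 8.86% of all rows lower and 7.77% higher. Without scale E9 replicate 2 these counts were 5 and 1, without scale E9 replicate 1 they were 7 and 2, and without thigh E9 replicate 1 they were 12 and 4. Leaving out dorsal E9 replicate 2 or wing E9 replicate 2 gave 10 or 9 lower and 1 higher. The lower factors were foxp2, FOXC2 and FOXN2, SOX6 and SOX8, TBX15, TBX18 and TBX20, GATA2, and KLF5 and KLF12. The higher ones were KLF10 and TWIST3. The median log2 fold change was -0.09 over the 44 factors and -0.01 over all rows tested. The plot of fold changes by family shows TBX15, TBX18 and TBX20 below 0 while TBX2, TBX3 and TBX6 lay near it. Tbx22 also lay below 0, at -0.79 with edgeR, and was not called.

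**Figure D2:**
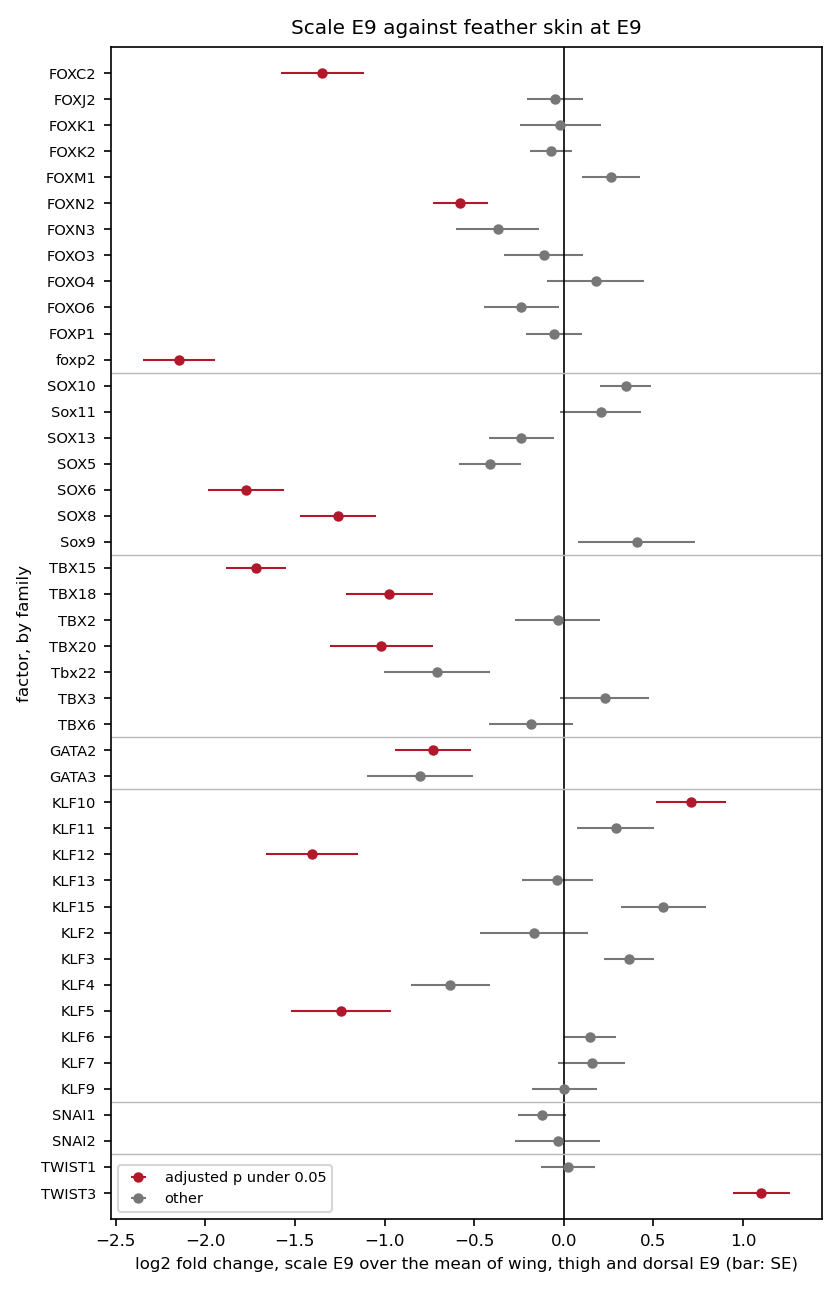
Log2 fold change of each factor in scale E9 over the mean of wing, thigh and dorsal E9, on the log2(CPM + 1) scale, with bars of 1 SE. Red points are the 13 factors with an adjusted p under 0.05, of which foxp2 lies lowest at -2.15 and TWIST3 highest at 1.10.

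Among the forkhead genes, foxp2, a repressor known from speech and song circuits in human and songbird, had 3.88 and 4.26 CPM in scale E9. It had 15.2 and 17.5 CPM in wing E9, 15.0 and 19.4 CPM in thigh E9 and 27.2 and 45.0 CPM in dorsal E9. Every scale library was below every feather library, and scale E11 stayed as low at 3.23 and 4.54 CPM while dorsal E7 had 43.6 and 38.8 CPM. The log2 fold change in scale E9 was -2.15 ± 0.20 (SE, n = 2 against 6, adjusted p 1.10e-05). Set against each feather region alone it was -2.83 against dorsal, -1.83 against thigh and -1.77 against wing E9, comparisons that share the scale E9 libraries. Its relative FOXP1 had 29.2 and 21.4 CPM in scale E9, against 23.7 and 23.6 CPM in wing E9, 43.9 and 35.1 CPM in thigh E9 and 18.0 and 19.8 CPM in dorsal E9. Scale E9 overlapped wing E9, lay below thigh E9 and lay above dorsal E9, and FOXP1 was not called in scale E9 against the feather mean. Against thigh E9 alone it was lower by a log2 fold change of -0.63 ± 0.19 (adjusted p 0.0322), and -0.41 (0.225) without scale E9 replicate 2. That call was lost in 7 of 22 alternatives, 6 of which left out 1 library.

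FOXC2, which is known for vessel and lymphatic valve formation, had 0.97 and 0.18 CPM in scale E9. Wing E9 had 4.66 and 3.56 CPM, thigh E9 0.94 and 0.84 CPM and dorsal E9 5.82 and 4.41 CPM. Scale E9 overlapped thigh E9 and lay below wing and dorsal E9, and the 0.18 CPM rested on 3 reads. Scale E9 was lower by a log2 fold change of -1.35 ± 0.23 (adjusted p 0.00126). Leaving out scale E9 replicate 2 gave -0.98 (adjusted p 0.0506), and edgeR on the recovered reads gave -2.26. FOXN2 had 16.8 and 18.5 CPM in scale E9, against 24.3 and 26.3 CPM in wing E9, 29.5 and 37.0 CPM in thigh E9 and 21.6 and 24.3 CPM in dorsal E9. The scale libraries lay below all 6 feather libraries of that age, at a log2 fold change of -0.58 ± 0.15 (adjusted p 0.0206). That call did not hold without wing E9 replicate 2 (-0.56, adjusted p 0.0529), scale E9 replicate 1 (-0.51, 0.168) or scale E9 replicate 2 (-0.64, 0.0835). The other 9 forkhead genes were not called.

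SOX6 and SOX8 were low in scale E9 and are given by range, since both averaged under 5 CPM in scale E9 and over the 6 feather libraries. SOX6, a partner of SOX5 and SOX9 in cartilage formation in mouse, lay between 0.28 and 0.29 CPM in scale E9 and between 2.25 and 5.08 CPM in the 6 feather libraries. The scale values rested on 4 and 5 reads, just above the 3-read limit. SOX6 was lower in scale E9 by a log2 fold change of -1.77 ± 0.21 (adjusted p 7.80e-05), and with edgeR on the recovered reads it was -3.57. SOX8, a SoxE factor of neural crest derivatives, lay between 0.88 and 1.73 CPM in scale E9 and between 2.91 and 6.65 CPM in the feather libraries, without overlap. Scale E9 was lower by -1.26 ± 0.21 on the log2 scale (adjusted p 0.00109).

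The cartilage and glial factors beside them were not called in this comparison. Sox9, the cartilage master regulator, had 2.35 and 8.46 CPM in scale E9, against 3.41 and 4.56 CPM in wing E9, 3.33 and 2.02 CPM in thigh E9 and 2.76 and 3.85 CPM in dorsal E9. Of the 6 feather libraries 5 lay between the 2 scale values and thigh E9 replicate 2 lay below both, at a log2 fold change of 0.41. Of 11 cartilage markers measured, 4 were higher in scale E9, COL9A2 (2.35) and COL2A1 (2.03) among them, and 3 were lower, such as MATN4 (-1.95). The summed level of those 11 was 1316 to 1480 CPM in scale E9, against 435 to 479 CPM in wing E9, 415 to 638 CPM in thigh E9 and 773 to 775 CPM in dorsal E9, and their part in the SOX values was not tested. SOX10, which marks glia and melanocytes, had 55.0 and 40.6 CPM in scale E9, against 37.2 and 40.1 CPM in wing E9, 36.3 and 35.9 CPM in thigh E9 and 39.5 and 33.4 CPM in dorsal E9. Both scale values lay above all feather values of that age, replicate 2 by a small margin, and the log2 fold change of 0.34 did not pass the test. Dorsal E7, at 48.2 and 49.5 CPM, lay above scale E9 replicate 2. In the same comparison 2 of 8 Schwann cell markers were lower and none was higher.

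TBX15, a factor that sets dorsal coat character in mouse skin, had 72.8 and 49.3 CPM in scale E9. Wing E9 had 136 and 130.0 CPM, thigh E9 228 and 267 CPM and dorsal E9 244 and 239 CPM. All scale libraries lay below all feather libraries, with wing between scale and the other feather regions. Scale E11 had 91.0 and 63.2 CPM and dorsal E7 had 378 and 348 CPM. In scale E9 the log2 fold change was -1.72 ± 0.17 (adjusted p 1.37e-05). It came to -1.99 against dorsal, -2.03 against thigh and -1.14 against wing E9, again with the same scale E9 libraries in each.

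TBX18, which is expressed in the dermal condensates of mouse hair, had 42.5 and 36.5 CPM in scale E9, against 117 and 117 CPM in wing E9, 119.7 and 49.1 CPM in thigh E9 and 55.7 and 50.8 CPM in dorsal E9. Scale E9 lay below every feather library of its age, and wing E9 stood above dorsal E9. In scale E9 TBX18 was lower by a log2 fold change of -0.97 ± 0.24 (adjusted p 0.0135). Leaving out scale E9 replicate 1 or 2 gave adjusted p-values of 0.0667 and 0.152, and without the wing libraries the fold change was -0.69 (0.0953). TBX20, known from heart development, lay between 0.18 and 0.69 CPM in scale E9 and between 0.69 and 5.70 CPM in the feather libraries of that age. Its log2 fold change of -1.02 ± 0.29 (adjusted p 0.0268) was -0.60 (0.194) without the dorsal E9 libraries and -2.08 with edgeR. Leaving out dorsal E9 replicate 2 or either scale E9 library also ended that call, at adjusted p-values of 0.0527, 0.0569 and 0.280.

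GATA2, a factor of blood and endothelial progenitors, had 3.95 and 2.22 CPM in scale E9, against 13.4 and 13.8 CPM in wing E9, 2.26 and 1.26 CPM in thigh E9 and 7.46 and 5.29 CPM in dorsal E9. Scale E9 overlapped thigh E9, which lay lowest, and stood under wing and dorsal E9. Its fold change in scale E9 on the log2 scale was -0.73 ± 0.21 (adjusted p 0.0313). It was -0.16 (0.714) without the wing libraries, -0.42 (0.376) without scale E9 replicate 2 and -1.37 without the thigh libraries. Adjusted p was 0.0650 without dorsal E9 replicate 1 and 0.0549 and 0.0589 without either wing library. Nor was GATA2 called by edgeR (-0.81, 0.0830), in the fit on the compared libraries alone (0.0721) or without the dorsal E9 libraries (0.0730). Of 17 vessel endothelium markers, 13 were lower in scale E9 and none was higher. Their summed level was 354 to 514 CPM in scale E9, against 513 to 659 CPM in wing E9, 854 to 1067 CPM in thigh E9 and 1391 to 1710 CPM in dorsal E9, and none was at 0. Smooth muscle and pericyte markers were lower in 10 of 13, but in 2 of 13 against wing E9 alone. Their sums were 254 to 368 CPM in scale E9 and 245 to 309 CPM in wing E9, with overlap. The part of these markers in the GATA2 and FOXC2 values was not tested.

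KLF12 and KLF5 are next to each other in the chicken reference annotation (GRCg7b), with no other coding gene between them, and both were lower in scale E9. KLF12, a repressor, had 10.7 and 5.31 CPM in scale E9, against 11.4 and 12.8 CPM in wing E9, 29.5 and 41.0 CPM in thigh E9 and 17.5 and 33.7 CPM in dorsal E9. Its scale E9 libraries lay below all feather libraries, although wing E9 was close and KLF12 was not called against wing E9 alone. KLF12 was lower in scale E9 by a log2 fold change of -1.41 ± 0.26 (adjusted p 0.00191), and -0.96 (0.0726) without scale E9 replicate 2. KLF5, a factor of proliferating epithelium, had 16.1 and 28.0 CPM in scale E9, against 35.4 and 43.5 CPM in wing E9, 115 and 50.5 CPM in thigh E9 and 37.8 and 55.6 CPM in dorsal E9. Scale E9 lay below all 6 feather libraries, although KLF5 was not called against wing E9 alone. The thigh libraries differed most from each other. KLF5 was lower by a log2 fold change of -1.24 ± 0.28 (adjusted p 0.00753), and -0.86 (0.171) without scale E9 replicate 1. Of 22 keratinocyte markers 9 were higher and none lower in scale E9, COL17A1 (2.06) and CDH1 (1.74) among them. Their summed level was 407 and 863 CPM in scale E9, against 236 and 456 CPM in wing E9, 378 and 291 CPM in thigh E9 and 232 and 247 CPM in dorsal E9. Scale E9 replicate 1 thus lay below wing E9 replicate 2. The part of these markers in the KLF5 values was not tested.

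KLF10, an early gene of TGF-beta signalling, had 27.2 and 21.1 CPM in scale E9, against 17.3 and 13.0 CPM in wing E9, 14.1 and 12.2 CPM in thigh E9 and 17.2 and 12.7 CPM in dorsal E9. Both scale libraries exceeded the feather libraries, at a log2 fold change of 0.71 ± 0.20 (adjusted p 0.024). Against single regions limma called KLF10 against thigh E9 but not against wing or dorsal E9. There edgeR gave 0.67 (adjusted p 0.127) against wing and 0.69 (0.0649) against dorsal E9. The call did not hold without dorsal E9 replicate 2, wing E9 replicate 2 or either scale E9 library, where adjusted p was 0.0531, 0.0574, 0.263 and 0.0585. The other 9 KLF genes were not called, among them KLF6, with 77.4 and 92.6 CPM in scale E9, against 66.3 and 70.1 CPM in wing E9, 82.4 and 61.7 CPM in thigh E9 and 95.0 and 88.7 CPM in dorsal E9.

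TWIST3, a chicken relative of the mesenchymal factor TWIST1, had 431.5 and 444 CPM in scale E9, against 204 and 174 CPM in wing E9, 299 and 229 CPM in thigh E9 and 175 and 165 CPM in dorsal E9. Scale E9 was above all 6 feather libraries of its age. Dorsal E7, at 456 and 453.5 CPM, was as high as scale E9. TWIST3 was higher in scale E9 by a log2 fold change of 1.10 ± 0.16 (adjusted p 0.000299), made up of 1.36 against dorsal, 0.74 against thigh and 1.21 against wing E9. TWIST1 did not follow, with 148 and 177 CPM in scale E9, against 159.9 and 139 CPM in wing E9, 159 and 129 CPM in thigh E9 and 211 and 169.9 CPM in dorsal E9. Scale E9 overlapped each feather region, at a log2 fold change of 0.02. Of the 23 dermal fibroblast markers, 2 were higher and 4 lower in the same comparison.

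**Figure D3:**
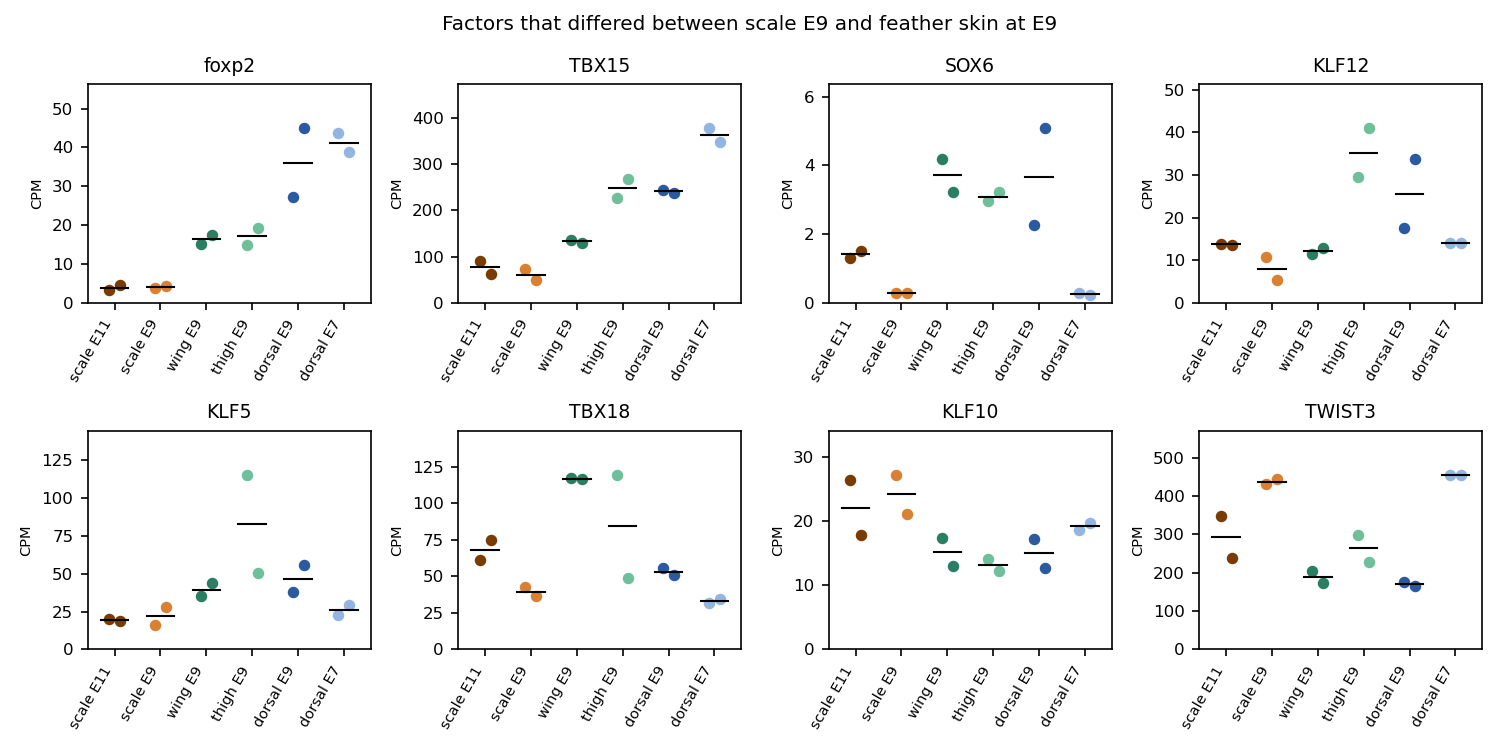
CPM of 8 factors in each library (points) of the 6 groups, with the mean of each group as a line and linear axes from 0. The scale E9 points of foxp2, TBX15 and SOX6 lie below, and those of TWIST3 above, all wing, thigh and dorsal E9 points.

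Calls against single feather regions, with the same scale E9 libraries in each, differed in number. Against wing E9, 7 factors were lower and 1 was higher in scale E9, against 4.13% and 4.77% of all rows, and 9 were lower and 4 higher without either thigh library. Against thigh E9, 13 were lower and 5 higher, with 12.7% and 11.7% of all rows. The 5 higher became 0 without thigh E9 replicate 2, 11 without thigh E9 replicate 1 and 1 without scale E9 replicate 1. Against dorsal E9, 13 were lower and 3 higher, with 12.6% and 9.23% of all rows, and without either thigh library 17 were lower and 6 higher. Scale E9 was lower in GATA2 against wing E9 by a log2 fold change of -1.87 ± 0.26 (adjusted p 0.000484), in Tbx22 against thigh E9 by -2.33 ± 0.36 (0.000609) and in SOX13 against dorsal E9 by -1.83 ± 0.22 (4.87e-05). KLF3, a repressor of fat and blood lineages in mouse, was higher in scale E9 against thigh E9 by 0.68 ± 0.17 (adjusted p 0.013). It had 42.1 and 36.8 CPM in scale E9 and 27.6 and 21.1 CPM in thigh E9, and adjusted p was 0.0513 without thigh E9 replicate 2 and 0.0822 without scale E9 replicate 1.

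The 3 feather regions also differed from each other at day 9. In thigh against dorsal E9, 10 factors were higher and 12 lower, with 13.5% and 16.5% of all rows. In wing against dorsal E9, 5 were higher and 10 lower, with 7.62% and 12.5%. In wing against thigh E9, 3 were higher and 8 lower, with 9.25% and 11.6%. Single libraries decided many of these calls. Without dorsal E9 replicate 1 or 2, the higher and lower counts in thigh against dorsal E9 were 5 and 7 or 6 and 5. In wing against dorsal E9 the total was 6 without either dorsal E9 library, 3 without wing E9 replicate 1 and 8 without wing E9 replicate 2. In wing against thigh E9 it was 22 without thigh E9 replicate 1, 17 without thigh E9 replicate 2 and 6 without wing E9 replicate 1. Each pair of these comparisons shares a region's libraries.

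Among the T-box genes 3 of 7 were called in wing against thigh E9, 1 higher and 2 lower. TBX3, a repressor needed for limb pattern, had 49.6 and 45.1 CPM in wing E9, 24.1 and 9.97 CPM in thigh E9 and 13.0 and 9.60 CPM in dorsal E9. Wing E9 was above every other library, while thigh and dorsal E9 overlapped. Wing exceeded dorsal E9 by a log2 fold change of 1.99 ± 0.30 (adjusted p 0.000489). Wing over thigh E9 was 1.54 ± 0.30 (adjusted p 0.0036), and 0.94 without thigh E9 replicate 2. Scale E9, at 25.6 and 22.6 CPM, was above dorsal E9 by 1.04 ± 0.30 (adjusted p 0.0252), a call that ended without dorsal E9 replicate 2 (0.180) or either scale E9 library (0.132 and 0.0804). In the reference annotation TBX3 lies next to TBX5, the forelimb factor left out of the set, which had 28.0 and 39.1 CPM in wing E9 and at most 0.57 CPM in any other library.

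TBX2, the paralogue of TBX3, had 19.1 and 17.9 CPM in wing E9, 22.6 and 12.6 CPM in thigh E9 and 7.97 and 7.19 CPM in dorsal E9. Both limb regions lay above dorsal skin and overlapped each other. Wing exceeded dorsal E9 by a log2 fold change of 1.18 ± 0.29 (adjusted p 0.0121) and thigh exceeded it by 1.06 ± 0.29 (0.0166). The wing call did not hold without either dorsal E9 library (0.0533 and 0.0719) or wing E9 replicate 1 (0.0839). The thigh call did not hold without either dorsal E9 library (0.0663 and 0.0792) or thigh E9 replicate 1 (0.66, adjusted p 0.0854). TBX2 has 1 coding gene between it and TBX4, the hindlimb factor left out of the set, which had 186 and 149 CPM in scale E9, 45.7 and 25.3 CPM in thigh E9 and at most 3.18 CPM in wing and dorsal skin.

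Tbx22, a palate factor in mouse and human, had 22.8 and 12.1 CPM in thigh E9 and no more than 5.40 CPM elsewhere. Wing E9 had 1.61 and 1.43 CPM and dorsal E9 3.78 and 2.77 CPM, both below thigh E9. Thigh exceeded dorsal E9 by a log2 fold change of 2.05 ± 0.36 (adjusted p 0.00114), and wing was lower than thigh E9 by -2.81 ± 0.36 (0.000199). TBX18 was higher in wing than in dorsal E9 by 1.12 ± 0.29 (adjusted p 0.0165). That call did not hold without dorsal E9 replicate 1 or 2 (0.0671 and 0.0929) or wing E9 replicate 1 or 2 (0.0896 and 0.0683).

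SOX5, the close relative of SOX6, had 8.85 and 7.88 CPM in thigh E9 and 1.91 to 3.94 CPM in the other 10 libraries. Thigh E9 was thus apart from every other group, by a log2 fold change of 1.14 ± 0.21 over dorsal E9 (adjusted p 0.0017). Wing was lower than thigh E9 by -1.54 ± 0.21 (0.000328), and scale E9 was lower than thigh E9 by -1.30 ± 0.21 (0.000897). KLF13 had 1.20 and 1.57 CPM in wing E9, 5.52 and 8.44 CPM in thigh E9 and 3.32 and 2.57 CPM in dorsal E9. Wing E9 was the lowest group, at -1.72 ± 0.24 below thigh E9 on the log2 scale (adjusted p 0.000387). KLF12 was also lower in wing than in thigh E9, by -1.46 ± 0.32 (adjusted p 0.00628), or by -1.38 (0.0578) without wing E9 replicate 1.

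GATA2 was higher in wing E9 than in every other group. Its log2 fold change was 2.43 ± 0.26 in wing over thigh E9 (adjusted p 4.46e-05) and 1.0 ± 0.26 in wing over dorsal E9 (0.0153). The call against dorsal E9 did not hold without dorsal E9 replicate 2 (0.79, adjusted p 0.130) or either wing library (0.0833 and 0.0747). The summed endothelial markers were lower in wing E9, with 513 to 659 CPM in wing E9 and 1391 to 1710 CPM in dorsal E9, and 15 of 17 were lower there. What part these markers have in the GATA2 values was not tested.

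SOX13, KLF4, KLF15 and FOXC2 were low in thigh E9 against dorsal E9. SOX13, the remaining SoxD factor, had 7.47 and 8.98 CPM in wing E9, 7.60 and 6.07 CPM in thigh E9 and 49.0 and 38.1 CPM in dorsal E9. Dorsal E9 was above every other library, scale skin included. The log2 fold change was -2.50 ± 0.22 in thigh (adjusted p 6.17e-06) and -2.27 ± 0.22 in wing (1.53e-05) against the same dorsal libraries. KLF4, a factor of the epidermal barrier in mouse, had 45.2 and 52.5 CPM in wing E9, 56.4 and 28.8 CPM in thigh E9 and 181 and 131 CPM in dorsal E9. Dorsal E9 again held the highest values of all groups, at a log2 fold change of -1.91 ± 0.27 in thigh (adjusted p 0.000244) and -1.64 ± 0.27 in wing (0.000844). KLF4 is Z-linked in chicken. KLF9 is Z-linked too, but it passed the filter only through dorsal E9, so its highest level there was fixed in advance. The F test did not call KLF9 (adjusted p 0.166). Whether the near lack of W chromosome reads in the dorsal E9 libraries bears on the KLF4 values was not tested.

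KLF15, a glucocorticoid-responsive metabolic factor, had 3.94 and 5.27 CPM in wing E9, 5.09 and 2.23 CPM in thigh E9 and 14.1 and 10.3 CPM in dorsal E9. It was lower in thigh by -1.56 ± 0.29 on the log2 scale (adjusted p 0.00165) and in wing by -1.23 ± 0.29 (0.00931) than in dorsal E9. The wing call ended without dorsal E9 replicate 1 (0.0945) or wing E9 replicate 1 (0.0981). Scale E9, at 9.90 and 8.29 CPM, was above thigh E9 by 1.18 ± 0.29 (adjusted p 0.0114), but by 0.72 (0.0894) without thigh E9 replicate 2 and 1.07 (0.0709) without scale E9 replicate 1. FOXC2 was lower in thigh than in dorsal E9 by -1.68 ± 0.29 (adjusted p 0.000857) and higher in wing than in thigh E9 by 1.43 ± 0.29 (0.00389). KLF2, a flow-responsive endothelial factor, had 24.6 and 26.1 CPM in wing E9 and 74.8 and 51.4 CPM in dorsal E9. Its log2 fold change of -1.26 ± 0.37 in wing (adjusted p 0.0287) was lost without dorsal E9 replicate 1 (0.201) or either wing library (0.142 and 0.0880).

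**Figure D4:**
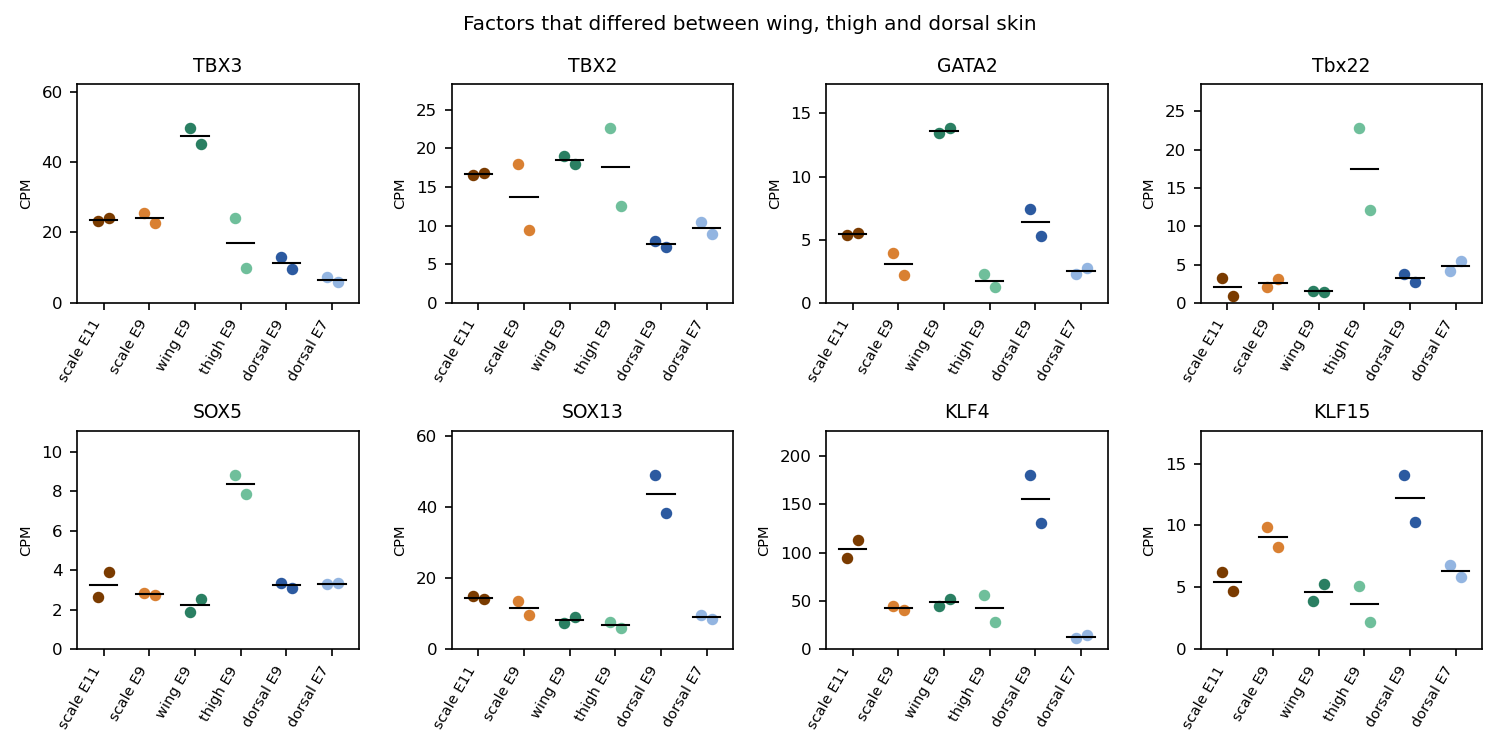
CPM of 8 factors that differed between feather regions, per library (points) in the 6 groups, with group means as lines and linear axes from 0. TBX3 and GATA2 are highest in wing E9, Tbx22 and SOX5 in thigh E9, and SOX13, KLF4 and KLF15 in dorsal E9.

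Change with age was measured in dorsal skin between day 7 and day 9, the interval in which feather buds form there. The dorsal E9 libraries nearly lacked HINTW and SPINW reads and the dorsal E7 ones did not, a difference that cannot be told apart from age here. In dorsal E9, 10 of 44 factors were higher and 4 lower than in dorsal E7, against 12.2% and 7.96% of all rows. These counts were 6 and 2 without dorsal E7 replicate 1, 9 and 2 without dorsal E7 replicate 2 and 8 and 2 without dorsal E9 replicate 1. The higher factors were KLF2, KLF4, GATA2, GATA3, SOX6, SOX8, Sox9, SOX13, FOXC2 and SNAI2, and the lower ones FOXM1, FOXP1, Sox11 and TWIST3. Of the 7 T-box genes none was called by limma or edgeR, while 2 were higher and 1 lower at an unadjusted p under 0.05. No share of all rows is given for those unadjusted counts, so they are not read as a result about the T-box genes. SOX genes were higher in 4 of 7 and both GATA genes were higher. The median log2 fold change was 0.18 over the 44 factors and 0.03 over all rows.

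KLF4 had 181 and 131 CPM in dorsal E9 and 11.3 and 15.2 CPM in dorsal E7. On the log2(CPM + 1) scale this was the largest age change of the 44, at 3.46 ± 0.27 (adjusted p 1.45e-06). KLF4 is Z-linked, and whether the near lack of W chromosome reads in dorsal E9 bears on this change was not tested. KLF2 had 74.8 and 51.4 CPM in dorsal E9, against 12.1 and 19.8 CPM in dorsal E7, a log2 fold change of 1.94 ± 0.37 (adjusted p 0.00221). Neither gene's groups overlapped. GATA3, a factor of epidermis and hair follicle in mouse, had 6.38 and 6.98 CPM in dorsal E9 and 0.37 and 0.91 CPM in dorsal E7. GATA3 was higher in dorsal E9 by a log2 fold change of 2.25 ± 0.36 (adjusted p 0.000644), from 5 and 16 reads in dorsal E7. GATA2 had 7.46 and 5.29 CPM in dorsal E9 and 2.28 and 2.73 CPM in dorsal E7, at 1.06 ± 0.26 (adjusted p 0.0105). That call did not hold without dorsal E7 replicate 1 (0.97, 0.0952) or dorsal E9 replicate 1 (0.85, 0.113).

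SOX13 had 49.0 and 38.1 CPM in dorsal E9 and 9.71 and 8.47 CPM in dorsal E7, a log2 fold change of 2.14 ± 0.22 (adjusted p 1.80e-05). SOX6 lay between 2.25 and 5.08 CPM in dorsal E9 and between 0.23 and 0.29 CPM in dorsal E7, where it rested on 4 reads in each library. Its fold change was 1.82 ± 0.26 (adjusted p 0.000288), and 3.79 with edgeR. The groups were apart in both genes. SOX8 was higher by 1.21 ± 0.26 (adjusted p 0.00493), with 1.08 (0.0612) without dorsal E7 replicate 1 and 1.89 with edgeR. Sox9 had 2.76 and 3.85 CPM in dorsal E9 and 0.81 and 0.80 CPM in dorsal E7, at 1.24 ± 0.40 (adjusted p 0.0440). That call was lost in 10 of 21 alternatives, among them each dorsal library left out (adjusted p 0.0977 to 0.213) and the replicate block (0.0511), and edgeR gave 2.03. In the same comparison 5 of 11 cartilage markers were higher and 2 lower, with a sum of 773 to 775 CPM in dorsal E9 and 784 to 825 CPM in dorsal E7.

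FOXC2 had 5.82 and 4.41 CPM in dorsal E9, against 0.59 and 0.63 CPM in dorsal E7. The log2 fold change was 1.92 ± 0.29 (adjusted p 0.000377), or 3.06 with edgeR. Of the markers named beside FOXC2, GATA2 and KLF2 above, 11 of 17 endothelial and 11 of 13 smooth muscle and pericyte genes were higher and none lower in dorsal E9. The endothelial sum was 1391 to 1710 CPM in dorsal E9 and 774 to 789 CPM in dorsal E7, and the smooth muscle sum 1024 to 1169 CPM and 348 to 361 CPM in the same order. Keratinocyte markers were higher in 10 of 22 and lower in none, with sums of 232 to 247 CPM in dorsal E9 and 104 to 135 CPM in dorsal E7. The same keratinocyte markers were also counted in other comparisons. In scale E9 against dorsal E9, 8 of the 22 markers were higher and none lower. There edgeR gave -1.86 for KLF4 (adjusted p 0.00028) and -1.87 for GATA3 (0.0184). In scale E11 against scale E9 none of the 22 was called, and KLF4 was higher. What part these markers have in the factor values was not tested.

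SNAI2, which keeps neural crest and dermal cells mesenchymal, had 715 and 627 CPM in dorsal E9 and 248 and 298 CPM in dorsal E7. SNAI2 was higher in dorsal E9 by a log2 fold change of 1.30 ± 0.29 (adjusted p 0.00638), not called without dorsal E7 replicate 1 (1.17, 0.0686) or dorsal E9 replicate 1 (1.20, 0.0611). SNAI1 had 102 and 106 CPM in dorsal E9 and 89.3 and 103 CPM in dorsal E7. Those values overlapped, and SNAI1 was not called. TWIST3 had 175 and 165 CPM in dorsal E9, against 456 and 453.5 CPM in dorsal E7, a log2 fold change of -1.41 ± 0.19 (adjusted p 0.00019). TWIST1 had 211 and 169.9 CPM in dorsal E9 and 176 and 166 CPM in dorsal E7, with overlap. Among 23 dermal fibroblast markers 9 were higher and 2 lower in dorsal E9.

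FOXM1, an activator of mitotic genes, had 47.6 and 56.8 CPM in dorsal E9 and 109 and 101 CPM in dorsal E7. It was lower in dorsal E9 by a log2 fold change of -1.0 ± 0.20 (adjusted p 0.00283). Mitosis markers were lower in 19 of 21 and higher in none, with sums of 2047 to 2611 CPM in dorsal E9 and 4138 to 4181 CPM in dorsal E7. FOXM1 was also higher in thigh than in dorsal E9, by 1.11 ± 0.20 (adjusted p 0.00118), where 17 of 21 mitosis markers were higher. In scale E9 it was above dorsal E9 by 0.86 ± 0.20 (adjusted p 0.00659), lost without dorsal E9 replicate 1 (0.0759) or scale E9 replicate 1 (0.0643). Wing over dorsal E9 had 14 of 21 mitosis markers higher, and edgeR gave 0.67 for FOXM1 (adjusted p 0.0318). All these comparisons share the dorsal E9 libraries. Scale E9 against thigh E9 had 5 of 21 mitosis markers lower, and wing against thigh E9 had 3 of 21 lower. FOXM1 was not called by edgeR in either, at -0.29 (adjusted p 0.304) and -0.49 (0.104) in the same order. What part the mitosis markers have in the FOXM1 values was not tested.

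Sox11, a SoxC factor of progenitor cells, had 16.6 and 20.9 CPM in dorsal E9 and 38.4 and 39.8 CPM in dorsal E7. The log2 fold change of -1.03 ± 0.28 (adjusted p 0.0177) was not called without dorsal E7 replicate 1 (0.0890), dorsal E7 replicate 2 (0.101) or dorsal E9 replicate 1 (0.142). FOXP1 had 18.0 and 19.8 CPM in dorsal E9 and 32.7 and 33.0 CPM in dorsal E7, at -0.77 ± 0.19 (adjusted p 0.0118). Leaving out the same 3 libraries ended that call too, at 0.0826, 0.0851 and 0.0961. In both genes the dorsal E9 libraries lay below the dorsal E7 ones.

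In scale skin, day 11 was set against day 9. Here 2 of 44 factors were higher in scale E11 and none was lower, against 4.37% and 1.46% of all rows tested. At an unadjusted p under 0.05 limma counted 7 higher and 6 lower, and edgeR called 3 higher and 0 lower. Over all rows edgeR called 659, of which 76.0% were higher. No share of all rows is given for the unadjusted counts, so they are not read as a result about the factors. Without either thigh library limma called 4 higher and 2 lower, and without scale E9 replicate 2 or scale E11 replicate 2 it called none. It called 0 higher and 1 lower without scale E11 replicate 1, and 1 of each without scale E9 replicate 1. KLF4 had 94.4 and 113 CPM in scale E11 and 44.9 and 41.1 CPM in scale E9, without overlap. Its log2 fold change was 1.24 ± 0.27 (adjusted p 0.0154). The call did not hold when any of the 4 scale libraries was left out, with fold changes of 1.12 to 1.37 and adjusted p-values of 0.0559 to 0.164. SOX8 lay between 4.32 and 4.65 CPM in scale E11 and between 0.88 and 1.73 CPM in scale E9, at 1.28 ± 0.26 (adjusted p 0.0112). It was 1.01 (0.145) when scale E9 replicate 2 was left out, and adjusted p was 0.0732 and 0.0846 when either scale E11 library was.

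SOX6 lay between 1.31 and 1.51 CPM in scale E11 and between 0.28 and 0.29 CPM in scale E9, at a log2 fold change of 0.91 ± 0.26 that did not pass limma's test (adjusted p 0.0635), while edgeR called it at 2.28 (adjusted p 0.0246). FOXO6 followed at 0.80 ± 0.25 (adjusted p 0.0918). TWIST3, with 349 and 239 CPM in scale E11 and 431.5 and 444 CPM in scale E9, was at -0.60 ± 0.19 (adjusted p 0.0977). The 2 groups did not overlap in TWIST3, and scale E11 still lay above wing and dorsal E9. Endothelial markers were higher in 13 of 17 and lower in none in scale E11, with sums of 1051 to 1057 CPM in scale E11 and 354 to 514 CPM in scale E9. KLF2 had 61.4 and 48.1 CPM in scale E11, against 39.3 and 27.0 CPM in scale E9, and was not called.

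The change with age in scale skin was tested against that in dorsal skin as an interaction, over different ages. The scale change was lower than the dorsal change in 5 of 44 factors and higher in none, against 3.01% and 1.98% of all rows. At an unadjusted p under 0.05 limma counted 5 higher, and edgeR called 0 higher. Over all rows edgeR called 516, of which 38.4% were higher. No share of all rows is given for the unadjusted count, so it is not read as a result about the factors. Without dorsal E7 replicate 1 limma called 3 lower, and it called 1 higher without either thigh library, scale E9 replicate 1 or scale E11 replicate 2. The 5 factors called lower with all 12 libraries were KLF4 (-2.21 ± 0.38, adjusted p 0.00437), GATA3 (-3.00 ± 0.51, 0.00392), SOX13 (-1.82 ± 0.31, 0.00431), SNAI2 (-2.03 ± 0.41, 0.0124) and Sox9 (-2.20 ± 0.57, 0.0424). GATA3 had 0.60 and 0.70 CPM in scale E11 and 1.45 and 2.16 CPM in scale E9, so that scale E11 lay below scale E9 while dorsal E9 lay above dorsal E7. SNAI2 had 262 and 299.7 CPM in scale E11 and 492 and 443 CPM in scale E9, with the same opposite order. Neither decrease in scale skin was itself called by limma or by edgeR, which gave -1.47 for GATA3 (adjusted p 0.224) and -0.74 for SNAI2 (0.198). SOX13 had 14.9 and 14.1 CPM in scale E11 and 13.6 and 9.63 CPM in scale E9, a small difference beside that in dorsal skin. Sox9 had 2.74 and 1.24 CPM in scale E11 and 2.35 and 8.46 CPM in scale E9, with overlap, and its interaction was -1.45 (adjusted p 0.140) without scale E9 replicate 2. The scatter of both age changes shows KLF4 above 0 on both axes and GATA3 and SNAI2 on opposite sides.

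**Figure D5:**
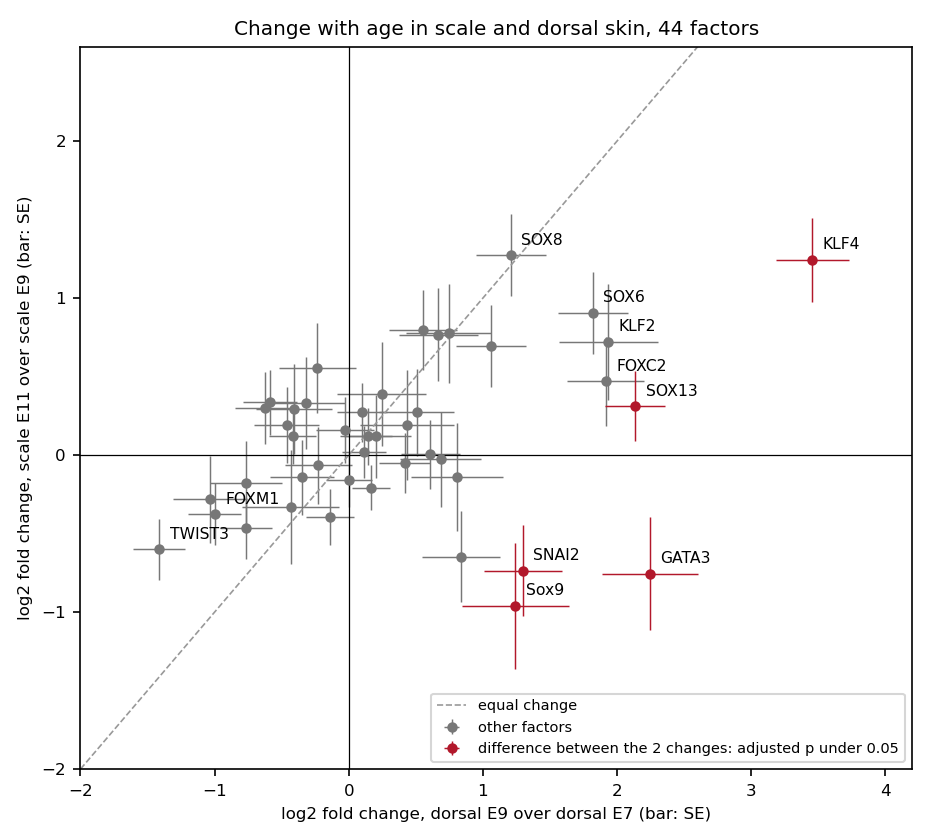
Log2 fold change with age of each factor in scale skin (scale E11 over scale E9) and in dorsal skin (dorsal E9 over dorsal E7), as labelled on the axes, with bars of 1 SE. The 5 red factors are those whose changes differed by the interaction test, from -1.82 for SOX13 to -3.00 for GATA3.

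Of the 44 factors, 22 were called in none of the 3 main comparisons (scale E9 against feather E9 and the 2 age changes), 16 in 1, 5 in 2, and SOX8 in all 3. The 12 factors not called in the F test over all groups were FOXJ2, FOXK1, FOXK2, FOXO3, FOXO4, SOX10, Sox11, TBX6, KLF9, KLF10, KLF11 and TWIST1, with adjusted p-values between 0.0550 for KLF10 and 0.357 for TWIST1. FOXK2 had 89.6 and 99.7 CPM in scale E11, 113 and 106 CPM in scale E9, 111 and 120.0 CPM in wing E9, 114 and 131 CPM in thigh E9, 107.5 and 108 CPM in dorsal E9 and 92.7 and 99.0 CPM in dorsal E7. FOXJ2 lay between 81.8 and 121 CPM in 11 libraries and at 66.2 CPM in thigh E9 replicate 2. FOXJ2 was highest in wing E9, at 116 and 121 CPM, by a margin of a few CPM over dorsal E9.

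Related factors outside the naming pattern were counted beside the members in scale E9 against feather E9. Among 10 rows of GATA relatives and partners, 3 were higher and 3 lower. TRPS1, an atypical GATA repressor known for hair and skeleton, was lower with a log2 fold change of -3.08 ± 0.25 (adjusted p 3.47e-06), at a mean of 5.51 CPM in scale E9, 25.5 CPM in wing E9, 39.2 CPM in thigh E9 and 155 CPM in dorsal E9. ZFPM1, a cofactor of GATA proteins, was higher by 1.81 ± 0.23 (adjusted p 0.00013). Of 7 KLF relatives 1 was higher, SP5 at 1.60 ± 0.26 (0.000898), and 1 lower, WT1 at -0.93. One of 6 HMG-box genes was lower, Lef-1 at -0.40 ± 0.13 (adjusted p 0.0478). T, the founding T-box gene, was higher by 0.67 ± 0.17 (0.0151), while MGA was not called.

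Between dorsal E9 and dorsal E7 the same lists gave 2 of 10 GATA relatives higher, with TRPS1 at 5.20 ± 0.31 (adjusted p 1.84e-07), and 1 of 7 KLF relatives lower, SP5 at -3.07 ± 0.32 (1.99e-05). T was lower in dorsal E9 by -3.02 ± 0.21 (adjusted p 4.72e-07), at means of 8.50 CPM in dorsal E9 and 76.7 CPM in dorsal E7. ZEB2, a zinc-finger relative of the SNAI factors in function, was higher by 1.41 ± 0.24 (0.000972) and ZEB1 lower by -0.79 ± 0.19 (0.00811). In scale E11 against scale E9, TRPS1 was higher by 3.68 ± 0.31 (adjusted p 4.32e-05) with 1 other of the 10 GATA relatives. HMGB2 was lower there by -0.62 ± 0.15 (0.0298).

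The remaining cell type lists were counted in the same 3 main comparisons. Of 9 melanocyte markers 1 was lower in scale E9, and 2 were higher and 2 lower in dorsal E9 against dorsal E7. Red blood cell markers were lower in 7 of 9 in scale E9, but none of the 9 was called against wing E9 alone. None of 13 leukocyte markers was called in any of the 3 by limma or edgeR, and at an unadjusted p under 0.05 limma counted 1, higher in dorsal E9 than in dorsal E7. Neuron markers were higher in 1 and lower in 4 of 8 in scale E9, motile cilia markers lower in 4 of 11, and skeletal muscle markers lower in 1 of 8. Between dorsal E9 and dorsal E7, red blood cell markers were lower in 2 of 9 and neuron markers in 1 of 8. Motile cilia markers were higher in 2 and lower in 1 of 11 there, and skeletal muscle markers higher in 2 and lower in 2 of 8. In scale E11 against scale E9 limma called none of the markers of these 4 cell types. Schwann cell markers were higher in 4 of 8 in dorsal E9 against dorsal E7 and in 2 of 8 in scale E11 against scale E9.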

How the data were processed

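The authors deposited 1 table of signal values, CPM scaled to an effective library size, for 12297 transcript rows and 12 libraries. The submitters used TopHat2, Partek, HTSeq, edgeR and the build galGal4, per the submitters' processing notes, with versions not given in the sources used here. In each library 100.0% of values up to 100 CPM were whole multiples of 1 read within 0.0055 CPM, so reads could be recovered for a count test, and floors cover counting error only.

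The filter kept 12277 of 12297 rows, those that reached 1 CPM in 2 or more libraries. All 44 factors passed. A model with 1 mean per group over all 12 libraries was fitted in limma 3.58.1 (R 4.3.3) with a mean-variance trend on log2(CPM + 1), a scale that understates changes of low genes. It had 6 residual and 6.95 prior degrees of freedom. Tests were two-sided, for 10 contrasts and an F test, and calls needed a Benjamini-Hochberg adjusted p under 0.05 over all rows tested. The fit was also run on simulated counts, drawn with the same spread setting for every row and no deviating library. That run does not cover a library such as thigh E9 replicate 2. Alternatives were other pseudocounts, filters and scalings, a replicate block, edgeR 4.0.16 with TMM on the recovered reads, the compared libraries only, and each library left out.

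The members and all gene lists were chosen with earlier results of these data known. Per-library values are given for factors called in a main contrast whose higher group averaged 5 CPM or more, for up to 4 per direction in other contrasts and for the 2 highest of each family. Other factors, such as SOX6, SOX8 and TBX20, are given by range. Related factors and markers are given as counts with the largest changes. SOX6 is drawn in a plot although it falls outside that rule, as it was picked after its values were seen. Symbols of 43 of 44 factors matched the reference list (GRCg7b, used only for names and neighbours). Without a stated strand setting, overlapping antisense reads cannot be told apart.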

Additional observations from a re-analysis of the deposited data

Results flagged for a closer look

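For 5 factors the change with age in scale skin (scale E11 over scale E9) differed from that in dorsal skin (dorsal E9 over dorsal E7) by limma's interaction test with Benjamini-Hochberg adjustment, and each stands here for that reason. The difference on the log2(CPM + 1) scale was -3.00 for GATA3 (adjusted p 0.00392), with edgeR giving -4.79. For KLF4 it was -2.21 (0.00437) and for SOX13 -1.82 (0.00431), and these 3 calls held under each alternative run. For SNAI2 it was -2.03 (0.0124), not called without dorsal E7 replicate 1 (0.0673), dorsal E9 replicate 1 (0.0596) or scale E11 replicate 1 (0.0647). For Sox9 it was -2.20 (0.0424), a call lost in 9 of 21 alternatives. The intervals run over days 9 to 11 in scale skin and 7 to 9 in dorsal skin, so age and body site cannot be told apart in them. All of these calls also rest on the dorsal E9 libraries, where HINTW and SPINW summed to 0.41 CPM in each. Dorsal E7 held 70.2 and 114.9 CPM of them, so that difference cannot be told apart from the dorsal age change either. Leaving out 1 library does not remove it, and KLF4 is Z-linked.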

How the results depend on the processing

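Of 124 calls of a factor in a contrast, 57 held under every alternative that was run for them and none changed direction. Counts of factors called kept within 1.5 times of the value reported under other pseudocounts, filters, scalings, no variance trend, edgeR and the replicate block. With only the libraries of the groups compared in the fit, 24 factors were called in dorsal E9 against dorsal E7 (14 reported), 8 in scale E11 against scale E9 (2), 10 in scale E9 against thigh E9 (18) and 10 in thigh against dorsal E9 (22). With 1 library left out, the counts ran as follows: 25 to 40 in the F test (32 reported), 6 to 16 in scale E9 against feather E9 (13), 8 to 21 in dorsal E9 against dorsal E7 (14) and 0 to 6 in scale E11 against scale E9 (2). They were 11 to 23 in scale E9 against dorsal E9 (16), 13 to 24 against thigh E9 (18) and 7 to 13 against wing E9 (8). In thigh against dorsal E9 they were 11 to 25 (22), in wing against dorsal E9 3 to 20 (15), in wing against thigh E9 6 to 22 (11), and 3 to 7 in the interaction (5). The lowest count for scale E9 against feather E9, 6, came without scale E9 replicate 2, and the 8 for the dorsal age change without dorsal E7 replicate 1. Scale E11 against scale E9 gave 6 without either thigh library, 1 without scale E11 replicate 1 and 0 without scale E9 or scale E11 replicate 2. Replicate numbers were not taken to pair samples. Deviations of same-numbered libraries correlated at -0.10 to 0.23 over 15 pairs of groups, with 5 pairs over 0.1 and 5 below 0. With 2 libraries per group these values cannot tell whether same-numbered libraries shared an embryo or a batch. The fit with the replicate block called 13 factors in scale E9 against feather E9, 16 in dorsal E9 against dorsal E7 and 2 in scale E11 against scale E9, and it kept 120 of the 124 calls. Quantile normalization moved the share of higher calls over all rows in scale E11 against scale E9 to 64.5% (75.0% reported). The cause of these shifts was not tested. Depth limits the low factors: FOXC2 and TBX20 rested on 3 reads in scale E9 replicate 2, and SOX6 on 4 or 5 reads per library in scale E9 and dorsal E7. The SOX6 log2 fold change in scale E9 against feather E9 was -3.57 with edgeR (-1.77 reported) and that of TBX20 -2.08 (-1.02).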
